A study of Mus musculus with 50 samples.

Results

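The comparison described here is between mouse embryonic stem cells labelled as a knockout of Ythdf1, called Ythdf1_KO, and wild-type cells, called WT, before any time in a transcription blocker. It was made on 8 of the 50 libraries of the series, chosen by their labels: 4 libraries of Ythdf1_KO and 4 of WT at 0 h, which are 2 duplicate libraries of replicate A and 2 of replicate B in each genotype. Both genotypes are of the KH2 line, with a C57BL/6 x 129/Sv background, cultured with serum and LIF and plated on gelatin for 48 h. The later samples of the series received 5 µM actinomycin D, which stops transcription, for 4 or 8 h. The series also holds Ythdf2_KO, Ythdf3_KO and Triple_KO cells, the last labelled as lacking all 3 genes. The sources used here give neither the number of clones behind a genotype nor the edited part of the gene, so a difference between the genotypes cannot be told apart from one between the cell populations that carry them.

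N6-methyladenosine, or m6A, is a methyl mark that cells place on adenosines inside mRNA. YTHDF1 is a cytoplasmic protein that holds this mark in the pocket of its YTH domain. It belongs to a family of close paralogs with YTHDF2 and YTHDF3, known for promoting the decay of marked transcripts and, for YTHDF1, also studied for an effect on translation. In embryonic stem cells many transcripts of pluripotency factors carry the mark, and loss of the enzyme complex that writes it hinders the exit from pluripotency. The series title asks how far the readers stand in for each other.

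RNA was measured by 3′ end sequencing of poly(A) RNA, and levels are given in FPM, reads scaled to the library total, which are not corrected for transcript length and are compared here only within a gene. The 8 libraries held 1183310 to 2341410 reads, of which 42.4 to 44.3% lay in listed genes. Duplicate libraries and replicates differed to a like degree beyond read sampling: the ratio of chi-square to its degrees of freedom was 1.40 and 1.47 for WT duplicates and 1.37 to 1.52 for WT A against B, and 1.44 and 1.70 against 1.36 to 1.63 in Ythdf1_KO. Whether A and B came from different cultures is not stated in the labels, and the spread behind the p-values may therefore be technical. Embryonic stem cell markers were present in both genotypes. Their summed level over 12 markers was 2851 to 3029 FPM in the WT libraries and 2785 to 3094 in Ythdf1_KO, with Pou5f1 at 845 FPM in WT and 776 in Ythdf1_KO, while Nanog stood at 2.20 and 1.51. Endoderm markers summed to at most 10.5 FPM, mesoderm markers to at most 1.28, and the trophectoderm marker Elf5 was listed at 0 in all 8 libraries.

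Ythdf1 itself was read at overlapping levels in both genotypes. Its level was 59.2, 50.7, 67.7 and 51.0 FPM in the WT libraries and 64.9, 54.2, 51.1 and 57.3 in Ythdf1_KO (-0.00 ± 0.13, adjusted p = 0.998). Because only the 3′ end is read, these values check neither the knockout nor the label. After 4 h of actinomycin D, Ythdf1 was higher in the knockout: 13.8 and 14.4 FPM in WT against 25.6 and 41.4 in Ythdf1_KO (log2 difference 1.16 ± 0.29, limma adjusted p = 0.0376), a call that ended without WT replicate A, without WT replicate B and without Ythdf1_KO replicate B (adjusted p = 0.154, 0.116 and 0.513). At 8 h the difference was 0.54 ± 0.29 (adjusted p = 0.411). Ythdf2, the paralog best known for recruiting the deadenylation machinery, had 58.6, 53.2, 53.6 and 40.5 FPM in WT and 66.6, 77.8, 66.5 and 58.6 in Ythdf1_KO at 0 h. The groups met at 58.6 FPM without crossing, and the difference of 0.39 ± 0.12 did not pass (adjusted p = 0.0574). It passed with a filter of 20 FPM (0.0309), with a pseudocount of 5 (0.0493) and without WT replicate A (0.0290), and missed the threshold under the other alternatives. Ythdf3 was listed only through a noncoding transcript, at 13.6 to 33.0 FPM in WT and 24.2 to 29.2 in Ythdf1_KO.

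Of 8697 genes tested at 0 h, 228 differed between Ythdf1_KO and WT at a limma adjusted p under 0.05, which is 2.62% of those tested: 150 were higher (1.72%) and 78 lower (0.897%). Here and below, a gene that rose or fell is one so called, and fold changes are log2 differences of FPM + 1, Ythdf1_KO minus WT, with the standard error from limma and n = 2 replicates a genotype. Most of the differences were small. The median was 0.47 among the higher and -0.60 among the lower genes, 131 of the 228 were under 1.5-fold, and 35 reached 2-fold, 22 of them higher. In all 228 both Ythdf1_KO replicate means lay beyond both WT replicate means, as they did in 39.8% of all genes tested. The counts lean on 1 replicate: without Ythdf1_KO replicate B 105 genes were called. With TMM scaling, which sets the bulk of genes equal, the split was 126 higher and 104 lower.

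**Figure D1:**
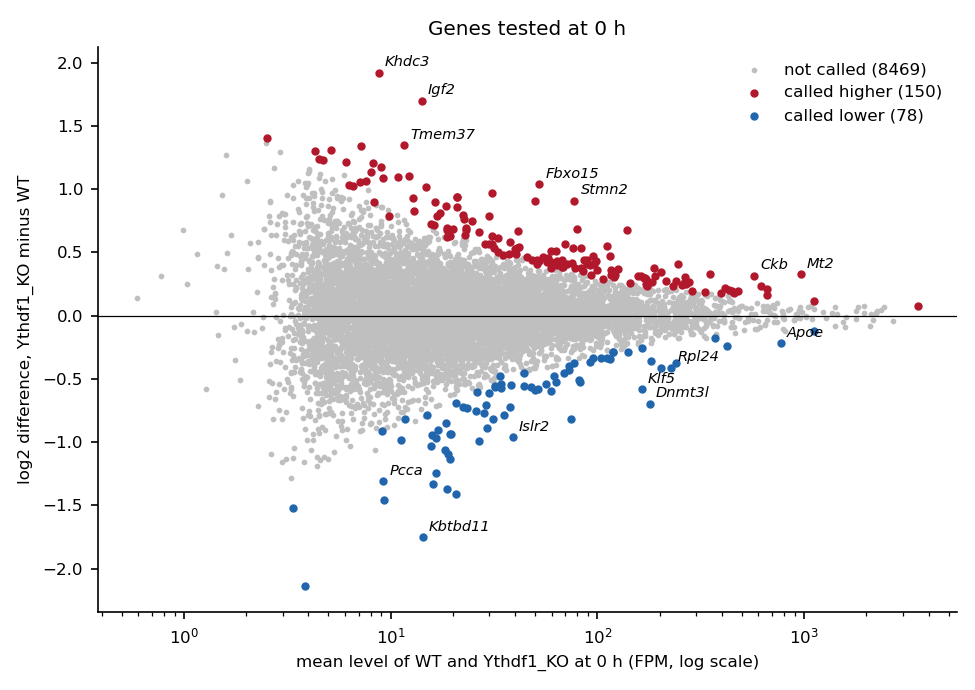
Log2 difference of Ythdf1_KO from WT at 0 h against the mean level in FPM (log axis) for the 8697 genes tested, 1 point a gene, with the 150 higher genes in red and the 78 lower in blue. Called genes run from Khdc3 at 1.92 to Kbtbd11 at -1.75 among those labelled, and differences of highly read genes such as Mt2 (0.33) are small.

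Genes of the oocyte, germline and early embryo read well enough to be tested stood higher. Of 33 listed, 16 were tested: 4 rose, against 1.72% of all genes, and none fell. A positive difference was seen in 12, and the median over the 16 was 0.46, against 0.02 over all genes. Khdc3 and Rhox6 were under 5 FPM in both WT replicate means and passed the filter only through knockouts, where they were higher. The count and the median therefore lean upward through the filter. The largest rise of the comparison was in Khdc3, a component of the maternal complex of the oocyte that also protects genome stability in stem cells, on chromosome 9 (73101381 to 73106631, GRCm38). It had 1.23, 3.38, 6.47 and 2.10 FPM in WT and 14.9, 10.4, 10.9 and 20.4 in Ythdf1_KO, with every knockout library above every WT library (1.92 ± 0.31, adjusted p = 1.57e-06). Dppa3, a maternal factor that protects DNA methylation in the zygote and marks naive cells, had 8.63, 1.69, 4.71 and 4.89 FPM in WT and 11.1, 11.8, 8.03 and 13.4 in the knockout (1.13 ± 0.25, adjusted p = 0.00107), where 1 WT library reached into the knockout's range. Tdrd12, which acts in the piRNA pathway of germ cells, went from 11.2 ± 3.19 to 21.4 ± 3.21 FPM (SD, n = 4 libraries; 0.90 ± 0.19, adjusted p = 8.49e-04, and 0.0968 without Ythdf1_KO replicate B). The fourth, Rhox6, an X-linked homeobox gene named after its values were seen, had 0.845 to 3.70 FPM in WT and 3.84 to 9.73 in the knockout. Against the same WT libraries, Khdc3 differed by 1.33 in Ythdf2_KO, 0.91 in Ythdf3_KO and 0.86 in Triple_KO. In the same order Dppa3 stood at 1.865, 0.67 and 2.55, and Tdrd12 at 1.33, 0.96 and 1.19. Khdc3, Dppa3 and Tdrd12 were not called against the mean of Ythdf2_KO and Ythdf3_KO.

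Pluripotency factors as a group did not move one way. Of 28 genes of the naive state, 3 rose and 1 fell, with a median of 0.01, and of 22 core factors 1 rose and none fell, with a median of 0.06. Fbxo15, an Oct4 and Sox2 target long used as a reporter of pluripotency, had 35.8, 31.3, 33.5 and 34.2 FPM in WT and 64.9, 64.6, 69.4 and 84.1 in Ythdf1_KO (1.04 ± 0.11, adjusted p = 2.90e-14). The 2 groups are far apart and each is tight. Rex2, a zinc finger gene, rose from 13.5 to 19.6 FPM in WT to 24.1 to 32.0 (0.77 ± 0.17, adjusted p = 0.00147, and 0.0749 without Ythdf1_KO replicate A). Rex2 is the core factor that rose. The third naive gene to rise, beside Fbxo15 and Dppa3, was Tdh, threonine dehydrogenase of mouse stem cells (0.20 ± 0.05), named after its values were seen. Klf5, a naive transcription factor, was the one that fell, from 197, 194, 197 and 198 FPM to 148, 120, 126 and 130 (-0.58 ± 0.08, adjusted p = 1.34e-08), and its position on chromosome 14 is taken up below. Dnmt3l, the cofactor of de novo DNA methylation, fell from 238, 212, 231 and 206 FPM to 144, 133, 146 and 124 (-0.70 ± 0.08, adjusted p = 1.33e-13), again with no overlap. It was the 1 member to change among 30 regulators of DNA methylation and chromatin.

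**Figure D2:**
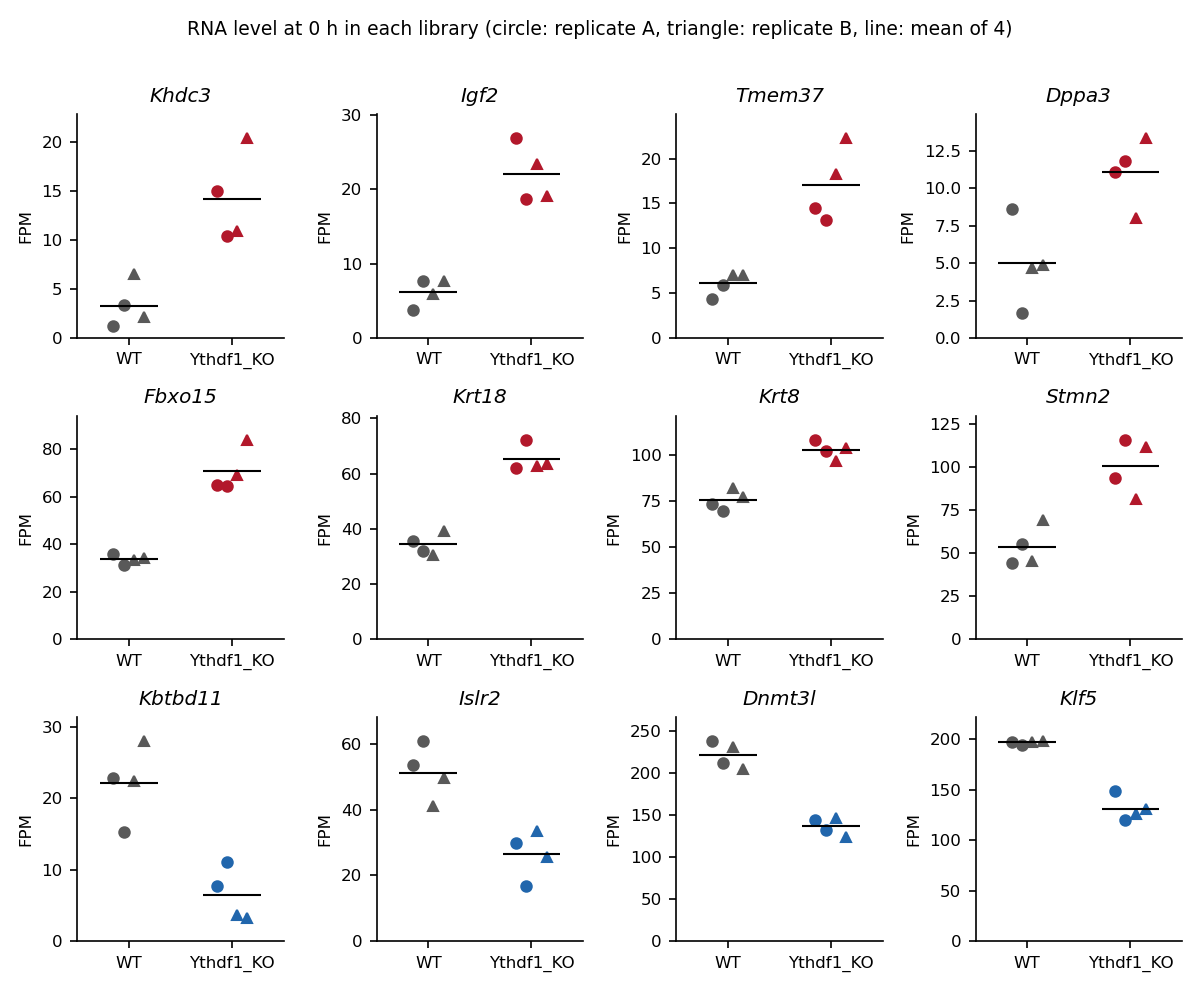
Level in FPM of 12 genes in each of the 8 libraries at 0 h, WT in grey and Ythdf1_KO in red (higher) or blue (lower), circles for replicate A, triangles for replicate B and a line for the mean of 4. The genotypes overlap in Dppa3 alone, where 1 WT library at 8.63 FPM passes a knockout library at 8.03.

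Imprinted growth regulators accounted for a pair of the large rises. Igf2, the paternally expressed fetal growth factor, on chromosome 7 (142650768 to 142666816), had 3.70, 7.61, 5.89 and 7.69 FPM in WT and 26.9, 18.8, 23.4 and 19.1 in Ythdf1_KO (1.70 ± 0.22, adjusted p = 1.96e-10). Its groups did not overlap. Cdkn1c, a maternally expressed inhibitor of the cell cycle on the same chromosome (143458339 to 143461059), had 5.55, 5.92, 9.42 and 9.09 FPM in WT and 17.9, 18.8, 13.9 and 17.2 in the knockout (1.10 ± 0.26, adjusted p = 0.00261), although the call ended without WT replicate A (adjusted p = 0.171) and without Ythdf1_KO replicate A. Commd1, a copper-handling protein, rose by 0.43 ± 0.11, a call that ended without WT replicate A (adjusted p = 0.140) or Ythdf1_KO replicate B. Over 27 imprinted genes 3 rose, none fell and the median was 0.06, so the list as a whole stood near the 0.02 of all genes. In the insulin-like growth factor pathway Igf2 rose and Htra1, a secreted protease that cleaves binding proteins of the pathway, fell from 83.2, 49.0, 63.0 and 46.1 FPM to 38.0, 44.5, 39.4 and 33.8 (-0.59 ± 0.14, adjusted p = 0.00458; the call ended without WT replicate A, at 0.174, and without Ythdf1_KO replicate B), out of 15 tested. Against the same WT libraries, the Igf2 difference was 1.90 for Ythdf2_KO, 0.29 for Ythdf3_KO and 2.31 for Triple_KO, and Cdkn1c at 0.78, -0.65 and 1.41.

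The keratins Krt18 and Krt8 and other trophectoderm markers were higher as well: 4 of 15 rose, against 1.72% of all genes, none fell, and the median was 0.56. Another keratin, Krt17, fell by 0.94 ± 0.26 on the log2 scale. Krt18 and Krt8 encode the partner keratins of simple epithelia and neighbour each other on chromosome 15. Krt18 had 35.8, 32.1, 30.6 and 39.1 FPM in WT and 61.9, 72.3, 62.8 and 63.7 in Ythdf1_KO (0.91 ± 0.13, adjusted p = 6.38e-09). Krt8 had 73.4, 69.3, 81.8 and 76.9 FPM against 108, 102, 96.4 and 104 (0.44 ± 0.10, adjusted p = 0.00157, and 0.0816 without WT replicate A). Neither gene's libraries overlapped between genotypes. Cdkn1c and Tfap2c, a transcription factor of trophoblast and germ cells named after its values were seen (0.79 ± 0.23), were the other members called. Of the 6 defining markers of the trophectoderm, Cdx2 had 1.02 FPM in WT and 1.14 in Ythdf1_KO, Gata3 6.93 and 6.37, Eomes 3.78 and 5.13, Krt7 3.27 and 7.54 and Tfap2c 7.22 and 12.5, and Elf5 was listed at 0. Their sum was 16.1 to 29.0 FPM in WT and 24.8 to 39.6 in the knockout. In bulk RNA, more cells of a kind and more RNA per cell cannot be told apart, and the part of such cells in the keratin rise was not tested.

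Some markers of fibroblast feeder cells were higher in the knockout. Of 24 such markers 5 rose, against 1.72% of all genes, and none fell. A positive difference was seen in 18, and the median was 0.22, against 0.02 over all genes. Fn1, fibronectin, had 178, 157, 174 and 145 FPM in WT and 215, 204, 247 and 187 in Ythdf1_KO (0.38 ± 0.07, adjusted p = 7.23e-05), and Lgals1, a galactoside-binding lectin, 166 to 196 FPM against 208 to 250 (0.34 ± 0.07, adjusted p = 2.22e-04). Both sets of libraries were apart. Col1a1, a collagen chain whose locus carries the integration site of KH2 cells, had 10.6 to 21.7 FPM against 20.9 to 37.2, with 1 library of each genotype crossing (0.80 ± 0.19, adjusted p = 0.00411, and 0.154 without Ythdf1_KO replicate B). Vim, an intermediate filament protein named after its values were seen, rose by 0.36 ± 0.10. Of 12 defining fibroblast markers, 8 reached a mean of 5 FPM in each genotype, and their sum was 394 to 449 FPM in the WT libraries and 491 to 597 in Ythdf1_KO. Lum was listed at 0 in all 8 libraries and Dcn in all WT libraries, Col3a1 stood at 0.322 FPM in WT and 0.555 in Ythdf1_KO, and Col1a2 at 7.58 and 5.87. Without Vim, Fn1 and Col1a1 the sum was 148 to 163 FPM against 184 to 199. The part of feeder cells in these differences was not tested.

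Several genes outside these groups also rose. Tmem37, a membrane protein related to calcium channel gamma subunits, had 4.32, 5.92, 7.06 and 6.99 FPM in WT and 14.5, 13.2, 18.3 and 22.3 in Ythdf1_KO (1.35 ± 0.23, adjusted p = 7.52e-06). The monocarboxylate transporter Slc16a6 rose by 1.34 ± 0.28, with 1 WT library at 8.83 FPM inside the knockout's range of 7.30 to 16.0 and a call that ended without WT replicate A (adjusted p = 0.174) or Ythdf1_KO replicate A, and Emb, an ancillary subunit of such transporters, by 1.18 ± 0.27. They were the 2 called among 8 monocarboxylate and glucose transporters, whose median was -0.02. Stmn2, a tubulin-binding protein of growing neurons, had 44.4, 55.8, 45.3 and 69.2 FPM in WT and 94.0, 116, 81.8 and 112 in the knockout (0.91 ± 0.10, adjusted p = 6.87e-14). It was the 1 of 8 neural and mesoderm markers called. Brpf3, a scaffold of histone acetyltransferases, Lrp5, a Wnt coreceptor, Pknox1, a homeobox cofactor, and Wdr41, a partner of the C9orf72 complex, rose by 1.07 to 1.20, and of these Brpf3 alone kept its call without each replicate in turn (adjusted p at most 0.0346). The other 3 lost it without WT replicate A (0.118 for Lrp5, 0.339 for Pknox1 and 0.370 for Wdr41) and without Ythdf1_KO replicate A, and Lrp5 and Pknox1 also without Ythdf1_KO replicate B. Calcoco2, an autophagy receptor and the 1 of 5 genes of the 2-cell-like state called, rose by 0.36 ± 0.08 (adjusted p = 0.151 without WT replicate B, and lost too without Ythdf1_KO replicate A).

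Among the most highly read genes the differences were small but tightly measured. Mt2, a metal-binding metallothionein, had 837, 852, 850 and 879 FPM in WT and 1012, 1083, 1098 and 1105 in Ythdf1_KO (0.33 ± 0.03, adjusted p = 5.21e-15). Ckb, brain creatine kinase, rose from 493 to 523 FPM to 614 to 648 (0.32 ± 0.04, adjusted p = 1.01e-10), Tuba1a by 0.23 ± 0.04 and Nme2, a nucleoside diphosphate kinase, by 0.21 ± 0.04, all with libraries apart. Apoe, the lipid carrier, fell from 785 to 866 FPM to 654 to 767 (-0.22 ± 0.04, adjusted p = 4.45e-05). Actb (0.07 ± 0.02) and Hspa8, a constitutive chaperone (0.12 ± 0.03), were the 2 named genes whose calls ended with TMM scaling. Their calls, and that of the ribosomal protein gene Rps15 (-0.12 ± 0.03), also ended without WT replicate A (adjusted p up to 0.919 for Actb, 0.517 for Hspa8 and 0.127 for Rps15 over the replicates left out) and without Ythdf1_KO replicate B, and that of Actb without WT replicate B.

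The largest fall with a name was in Kbtbd11, a Kelch and BTB domain protein, on chromosome 8 (15011025 to 15033333). It had 22.8, 15.2, 22.4 and 28.0 FPM in WT and 7.69, 11.1, 3.65 and 3.18 in Ythdf1_KO (-1.75 ± 0.27, adjusted p = 2.11e-07), and it kept its call without each replicate. Islr2, a leucine-rich repeat membrane protein, had 53.6, 60.9, 41.2 and 49.6 FPM against 29.9, 16.7, 33.6 and 25.5 (-0.96 ± 0.18, adjusted p = 2.72e-05). Both genes' libraries were apart. The endoderm markers read well enough to be tested stood lower. Of 9, 2 fell, against 0.897% of all genes, none had a positive difference and the median was -0.42. Lama1, a laminin chain of the basement membrane, fell from 38.9 to 50.6 FPM to 20.9 to 32.0 (-0.72 ± 0.16, adjusted p = 0.00147, and 0.0724 without Ythdf1_KO replicate A), and Apoe is the other. The 7 transcription factors and receptors that define endoderm summed to 5.07 to 10.5 FPM in WT and 3.48 to 7.00 in the knockout, too low for any of them to reach a mean of 5 FPM. Their means did not move one way. Gata6 (1.33 FPM in WT and 1.73 in Ythdf1_KO), Sox17 (0.469 and 0.639) and Pdgfra (0.175 and 0.646) were higher. Gata4 (1.51 and 1.32), Sox7 (1.04 and 0.289), Foxa2 (1.37 and 0.266) and Dab2 (1.51 and 0.503) were lower.

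Small and noncoding RNAs were lower. Of 20 noncoding RNAs and snoRNA host genes 4 fell, against 0.897% of all genes, none rose and 1 had a positive difference. Their median was -0.25, against 0.02 over all genes. Rn4.5s, a short RNA of rodent cells encoded in many copies, fell from 23.4, 15.2, 23 and 23.1 FPM to 9.82, 11.8, 14.6 and 5.09 (-1.03 ± 0.24, adjusted p = 0.00226, and 0.0903 without Ythdf1_KO replicate B; lost also without WT replicate B). The deposited table held 10 entries of this RNA, each called lower (-1.41 to -0.85), of which 9 carry only a numbered record and count among the 78 lower genes, leaving 69. Summed over the entries its level was 232, 239, 251 and 280 FPM in WT and 116, 106, 115 and 96.8 in Ythdf1_KO, with no overlap. The snoRNA hosts Snhg4 and Snhg12 fell by 0.76 ± 0.19 and 0.45 ± 0.12 on the log2 scale, with calls that ended without WT replicate B and, for Snhg4, without Ythdf1_KO replicate A (adjusted p = 0.164) or, for Snhg12, B (0.273), and Snhg3, named after its values were seen, fell by 0.43 ± 0.11.

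Signalling and stress genes moved singly and in both directions. Of 18 innate immune genes Ifitm1, an interferon-induced membrane protein, rose from 47.5 to 60.9 FPM to 68.7 to 96.8 (0.57 ± 0.11, adjusted p = 7.23e-05), while Nod1, a sensor of bacterial peptidoglycan, and Irf1, a transcription factor of interferon responses, fell by 0.98 ± 0.28 and 0.70 ± 0.18 on the log2 scale. Irf1 had 41.6 FPM in 1 library of Ythdf1_KO replicate B and 13.9 to 20.4 in the other 3, and without Ythdf1_KO replicate A its adjusted p was 0.744 and that of Nod1 0.443. Without WT replicate A both calls ended too, and without WT replicate B that of Nod1. Irak3, a brake on Toll-like receptor signalling, fell by 0.90 ± 0.26 (adjusted p = 0.315 without Ythdf1_KO replicate A, and lost without either WT replicate). In the integrated stress response Pck2 and Aars rose by 0.41 ± 0.10 and 0.29 ± 0.07 and Ddit4, an inhibitor of mTORC1, fell by 0.48 ± 0.14, of 31 tested. Leaving out WT replicate A ended the calls of all 3 (adjusted p = 0.203 for Pck2, 0.555 for Ddit4 and at most 0.108 for Aars), as did Ythdf1_KO replicate A for Pck2 and Ddit4 and replicate B for Aars and Ddit4. The chaperone Hspa4 fell by 0.38 ± 0.07, the ribosomal protein Rpl24 by 0.41 ± 0.07 and the p53 target Phlda3 by 0.29 ± 0.08 (adjusted p = 0.276 without WT replicate A, and lost without Ythdf1_KO replicate A). Of 25 cholesterol synthesis genes 2 fell and none rose. Among them Mvk, mevalonate kinase, fell by 0.82 ± 0.25, and the secreted Wnt antagonist Sfrp1 fell by 0.40 ± 0.11. Mvk and Sfrp1 each lost the call without 3 of the 4 replicates in turn (adjusted p up to 0.636 and 0.197). Krt17, a keratin, Msc, a transcription factor, and Ikbip fell by 0.94 ± 0.26, 0.94 ± 0.21 and 0.91 ± 0.28, and lost their calls without 2, 2 and all 4 replicates in turn (adjusted p up to 0.410, 0.0723 and 0.242). Of 80 cytosolic ribosomal proteins 1 rose and 2 fell (median 0.00), and of 73 nuclear genes of oxidative phosphorylation 2 rose and none fell (median 0.03). The ribosomal gene that rose, Rps23, and the others that rose, Ndufs4 and Uqcrb, lie on chromosome 13, which is taken up below.

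Some lists around the m6A readers held no gene called by limma, which at 2.62% called over all genes is near the background for lists of this length. At an unadjusted p under 0.05, 1215 of the 8697 genes passed. This was so for 12 m6A readers (medians here are log2 differences, 0.07), 13 writers and erasers (0.12), 23 genes of deadenylation and decapping (-0.06), 36 translation initiation factors (0.02) and 19 stress granule and P-body proteins (0.03). The members with the smallest p were Rbm15b, an adaptor of the methylation complex (0.47 ± 0.19, adjusted p = 0.187), Cnot7, a deadenylase (0.39 ± 0.18, adjusted p = 0.264), Eif4ebp1, the repressor of cap-dependent translation (0.17 ± 0.05, adjusted p = 0.0566), and Tial1 (-0.51 ± 0.19, adjusted p = 0.145). No gene was called either among 38 cell cycle genes, 15 Bcl2 family genes, 16 of the LIF and JAK-STAT pathway, 22 of the BMP and Nodal pathways and 14 of FGF signalling, with medians of -0.11 to 0.14.

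**Figure D3:**
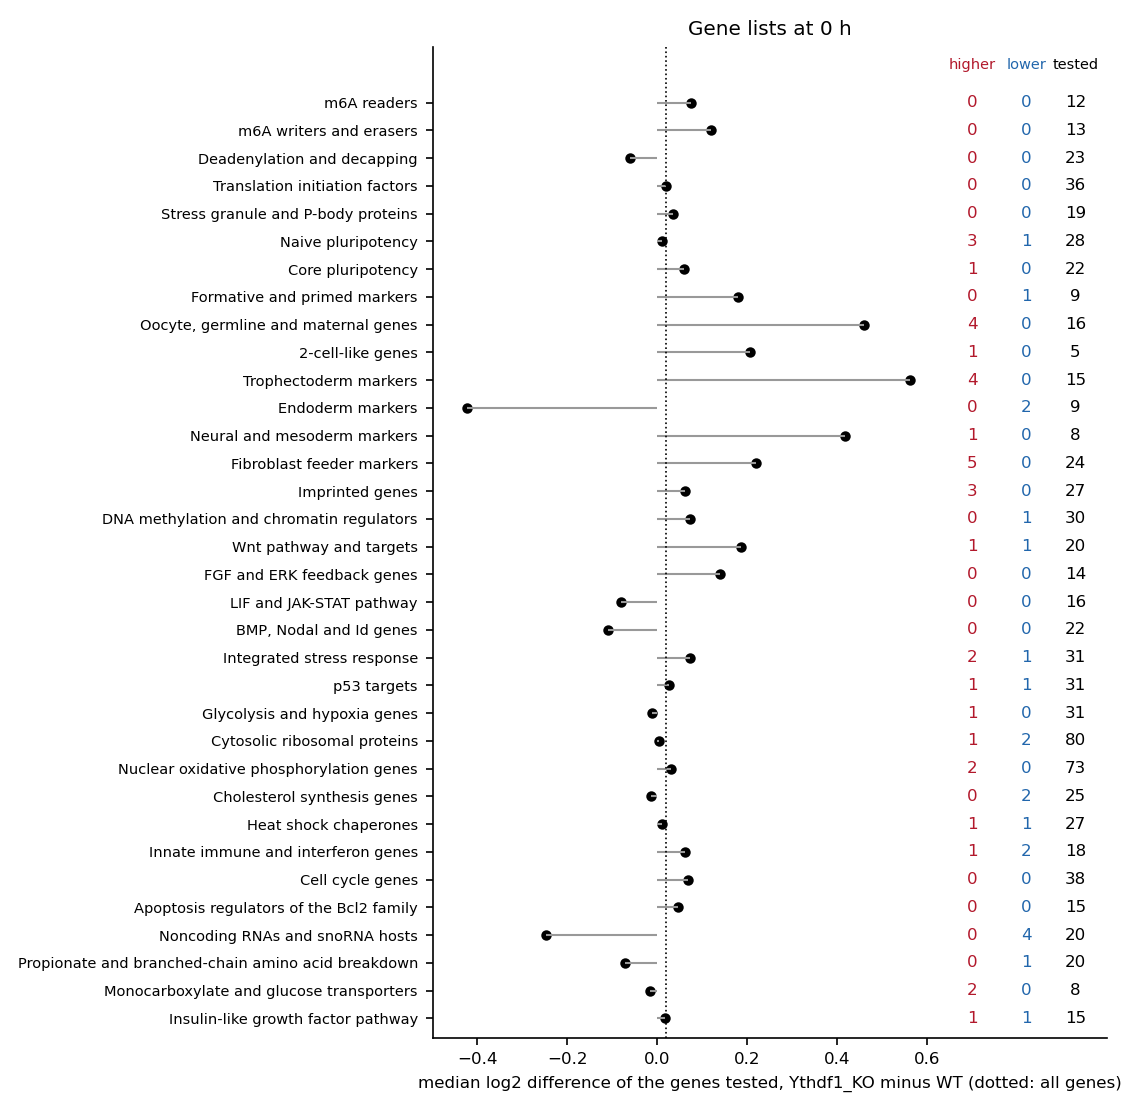
Median log2 difference at 0 h of the genes tested in each of 34 lists, with the number called higher (red), called lower (blue) and tested at the right and the median of all genes as a dotted line. The trophectoderm (0.56) and oocyte (0.46) lists lie farthest to the right and the endoderm list (-0.42) farthest to the left.

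Genes of chromosome 13 stood higher in Ythdf1_KO, which is given as a description with no test. Of 292 genes tested there 22 rose (7.53%) and 1 fell, against 128 risen of 8405 elsewhere (1.52%), and 73.0% had a difference above the overall median. The chromosome's median lay 0.17 above that of all genes in replicate A and again in replicate B, where the medians of the other chromosomes ran from -0.06 to 0.07 over both replicates. It held along the chromosome: in 6 windows of 20 Mb, each with 30 to 73 genes, the median stood 0.10 to 0.19 above all genes, while the 121 windows of other chromosomes with at least 20 genes ran from -0.13 to 0.11. Single libraries of Ythdf1_KO stood at 0.13 to 0.21 against the WT mean. Each WT library was set against the mean of the other WT replicate, and they stood at -0.03 to 0.02. Against the WT mean the value was 0.03 to 0.04 for Ythdf2_KO libraries, at most 0.02 for Ythdf3_KO and -0.05 to -0.01 for Triple_KO. Of the FPM in listed genes, the chromosome took 2.73% to 2.88% in Ythdf1_KO and 2.49% to 2.52% in WT. Pak1ip1, a factor of ribosome assembly, had 95.6, 102, 88.9 and 96.5 FPM in WT and 129, 131, 142 and 130 in the knockout (0.47 ± 0.09, adjusted p = 1.37e-04), and Nsd1, a histone methyltransferase, 67.8, 64.2, 65.3 and 72.7 FPM against 106, 92.4, 95.7 and 98.7 (0.53 ± 0.11, adjusted p = 2.03e-04). Pfkp, Ndufs4, Tubb2b and Tmem14c rose by 0.27 to 0.54. The calls of Pfkp and Tmem14c ended without Ythdf1_KO replicate B (log2 differences of 0.47 and 0.36). That of Ndufs4 ended without WT replicate A (0.26) and that of Tubb2b without Ythdf1_KO replicate A (0.19). Wdr41 and Emb, named above, lie there too, as do Rps23 (0.19 ± 0.05) and Uqcrb (0.24 ± 0.06). Without Ythdf1_KO replicate B the calls of Rps23 and Uqcrb ended (0.14 and 0.18), as they did without WT replicate A for Rps23 and B for Uqcrb. Pfkp, Ndufs4, Tubb2b and Tmem14c did not differ by a call from the mean of Ythdf2_KO and Ythdf3_KO. Set against the WT libraries that all comparisons share, Pfkp stood at 0.44 in Ythdf2_KO and 0.38 in Ythdf3_KO, Ndufs4 at 0.36 and 0.27 and Tubb2b at 0.54 and 0.30. In the later libraries the chromosome stood 0.12 above all genes at 4 h and 0.18 at 8 h.

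A segment of chromosome 14 moved the other way, and was noticed after the values were seen. Of the 36 genes tested beyond 80 Mb, 30 had a negative difference, 8 fell and none rose, and their median lay 0.41 below that of all genes, whereas the 263 genes before 80 Mb had 1 fall and a median of -0.02. They include Klf5, Mbnl2 and Pcca, and Rbm26, Uchl3 and Ipo5, the last 3 named after their values were seen. Pcca, a subunit of propionyl-CoA carboxylase, had 7.4, 15.2, 14.1 and 18.2 FPM in WT and 5.12, 5.56, 4.38 and 3.82 in Ythdf1_KO (-1.31 ± 0.29, adjusted p = 0.00147, and 0.0976 without WT replicate B; lost also without Ythdf1_KO replicate B). Mbnl2, a splicing regulator, fell by 0.94 ± 0.23 (adjusted p = 0.312 without Ythdf1_KO replicate B; lost also without WT replicate B). The WT libraries stood apart from every knockout here. Against the mean of the 20 libraries at 0 h, the segment stood between 0.28 and 0.48 in the WT libraries, between -0.07 and 0.12 in Ythdf1_KO and between -0.35 and 0.03 in the other knockouts. Set against the same WT libraries, its median was -0.66 for Ythdf2_KO, -0.51 for Ythdf3_KO and -0.47 for Triple_KO. In the 4 h and 8 h libraries it lay at -0.52 and -0.47 in Ythdf1_KO. The part of this shift in the falls of Klf5 and the other genes was not tested.

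**Figure D4:**
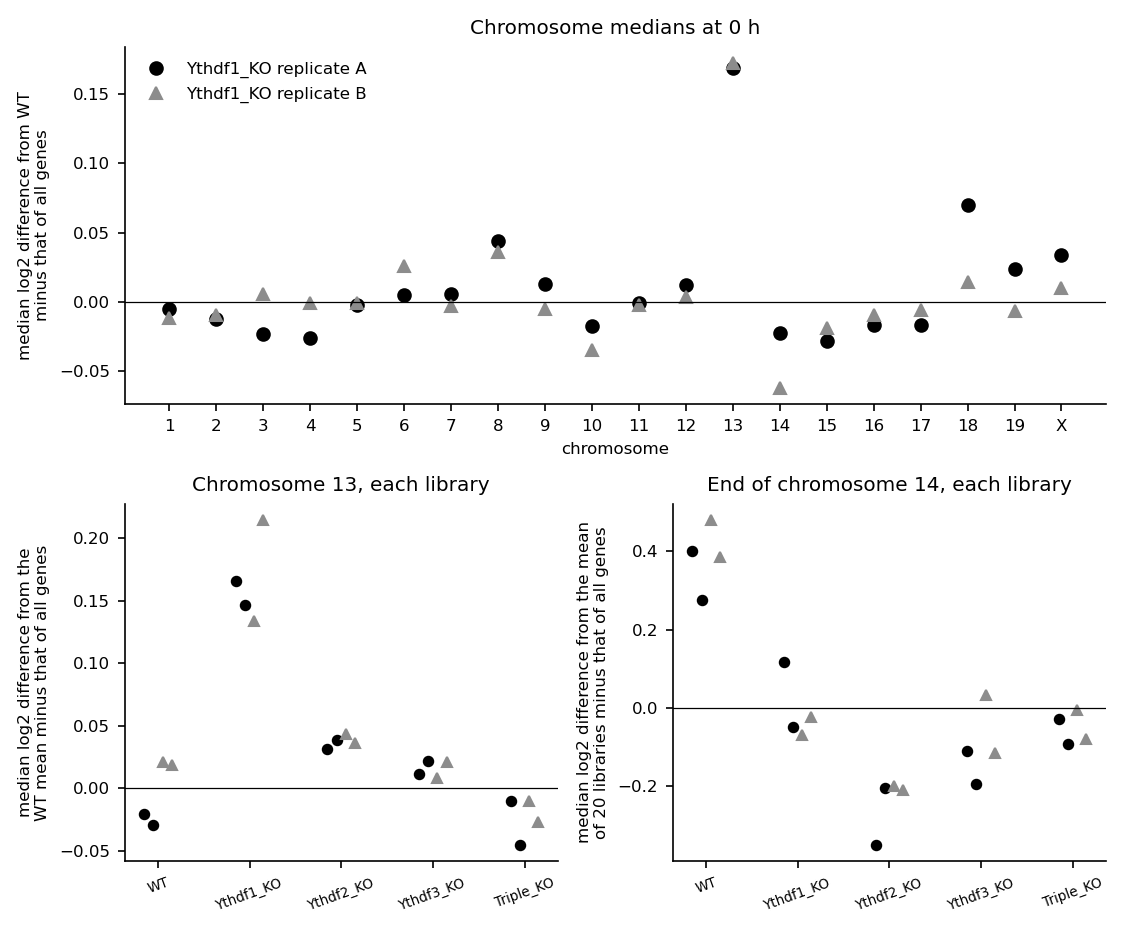
Top, median log2 difference from WT at 0 h of each chromosome's genes minus that of all genes, for Ythdf1_KO replicate A (circles) and B (triangles); chromosome 13 stands at 0.17 in both. Bottom, the same kind of median in each of the 20 libraries at 0 h, for chromosome 13 against the WT mean (left) and for the end of chromosome 14 against the mean of the 20 libraries (right), where the WT libraries lie at 0.28 to 0.48. On the left, each WT library is set against the mean of the other WT replicate instead.

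Ythdf1_KO was set directly against the mean of Ythdf2_KO and Ythdf3_KO, which uses no WT library. In this contrast 278 of 8697 genes were called (3.2%), 158 higher and 120 lower in Ythdf1_KO, and with TMM or median scaling the split turned to 121 against 200 and 105 against 239. Without Ythdf1_KO replicate B 136 genes were called. Ythdf2 was among the higher genes (0.67 ± 0.11, adjusted p = 2.42e-07), with 33.1 ± 4.20 FPM in Ythdf2_KO, where it is the targeted gene, 53.2 ± 7.58 in Ythdf3_KO and 67.4 ± 7.92 in Ythdf1_KO (SD, n = 4 libraries). Against Ythdf3_KO alone its difference was 0.34 ± 0.12 (adjusted p = 0.143). In Triple_KO, where Ythdf2 is a targeted gene too, its level was 86.2 ± 11.4 FPM, above the 51.5 ± 7.69 of WT. The actin-sequestering peptide Tmsb4x had 390 ± 13.1 FPM in Ythdf1_KO and 311 ± 12.5 in WT, and 312 ± 18.9 and 245 ± 10.2 in Ythdf2_KO and Ythdf3_KO (0.50 ± 0.05, adjusted p = 6.79e-18). Hmox1, heme oxygenase, stood higher by 0.47 ± 0.05 and Actb by 0.22 ± 0.02. Krt8 and Krt18 differed by 0.70 ± 0.09 and 0.77 ± 0.11, but between unlike genotypes: Krt8 had 103 FPM in Ythdf1_KO, 103 in Ythdf2_KO and 38.3 in Ythdf3_KO. S100a6 and Ccn2 stood higher by 0.69 ± 0.07 and 0.77 ± 0.09 without a call against WT.

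The glycolytic genes Ldha and Tpi1 were lower in Ythdf1_KO than in those knockouts and overlapped with WT. Ldha, lactate dehydrogenase, had 342 ± 38.6 FPM in Ythdf1_KO and 353 ± 13.6 in WT, against 510 ± 18.9 in Ythdf2_KO and 460 ± 12.6 in Ythdf3_KO (-0.51 ± 0.05, adjusted p = 4.24e-21), and Tpi1, triosephosphate isomerase, 268 ± 18.7 and 271 ± 23.4 against 371 ± 17.6 and 337 ± 10.7 (-0.40 ± 0.05, adjusted p = 4.73e-11). The Ythdf1_KO minus WT differences were -0.05 ± 0.05 for Ldha and -0.02 ± 0.06 for Tpi1. Hspa5, the main chaperone of the endoplasmic reticulum, was lower, at -0.30 ± 0.04. The histone genes H2ac23 and H2ac24 were lower, at -0.67 ± 0.07, but they carry near-identical values, so their reads cannot be told apart, and 1 library of Ythdf1_KO replicate B stood at 69.4 FPM where the other 3 had 124 to 180. Fbxo15, Stmn2, Dnmt3l, Islr2 and Lama1 differed from the mean of Ythdf2_KO and Ythdf3_KO by -0.15 to 0.10, with no call. Against single knockouts, Dnmt3l was higher than in Ythdf2_KO (0.35 ± 0.08, adjusted p = 0.00116) and Stmn2 lower than in Ythdf3_KO (-0.37 ± 0.10, adjusted p = 0.0199). The Fbxo15 level was 70.8 ± 9.14 FPM in Ythdf1_KO. It was 77.9 ± 9.18 for Ythdf2_KO, 70.1 ± 7.18 for Ythdf3_KO and 83.6 ± 6.29 for Triple_KO, against 33.7 ± 1.87 in the WT libraries that all of these comparisons share.

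The same genotypes were measured again in separate libraries after actinomycin D. At 8 h 129 of 7033 genes were called (1.83%), 83 higher and 46 lower, and at 4 h, with 1 library a replicate, 44 of 8002 (0.55%), 29 higher and 15 lower. The 8 h split was 67 against 103 with TMM scaling and 41 against 131 with median scaling, and the 4 h split 28 against 37 and 43 against 11. Leaving out WT replicate A left 52 calls at 8 h and leaving out WT replicate B 81, and the 4 h count 27 without WT replicate B, 13 without Ythdf1_KO replicate A and 20 without replicate B. Of the 207 genes called at 0 h and tested at 8 h, 178 had the same sign, 44 were called in the same direction and none in the opposite one. These 44 are 21.3% of the 207 and 34.1% of the 8 h calls. At 4 h 187 of 214 had the same sign, 21 were called in the same direction and none in the opposite one. The share of matching signs over all genes tested was not counted at either time. The genes higher at 0 h had a median of 0.29 at 4 h and 0.32 at 8 h, and the lower ones -0.33 and -0.20, beside medians over all genes of 0.02 and 0.05. The 8 h median of all genes moved by -0.09 with median scaling.

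Krt18, Krt8, Igf2, Cdkn1c and Tmem37 were among the genes called at both times. At 8 h Krt18 had 32.6 ± 2.65 FPM in WT and 102 ± 23.2 in Ythdf1_KO (1.60 ± 0.15), Krt8 78.8 ± 10.4 and 162 ± 8.33 (1.04 ± 0.11), Igf2 13.7 ± 3.81 and 45.3 ± 10.8 (1.66 ± 0.21), Cdkn1c 4.34 ± 2.83 and 23.8 ± 5.52 (2.31 ± 0.30) and Tmem37 2.04 ± 1.37 and 15.1 ± 5.42 (2.44 ± 0.38). Fbxo15, Stmn2, Mt2, Ckb and Tuba1a were higher and Dnmt3l, Lama1 and Apoe lower again, all called. Of these 8, the call of Fbxo15 ended without WT replicate A (log2 difference 1.00) and Ythdf1_KO replicate B (0.84), and that of Dnmt3l without WT replicate B (-0.50) and Ythdf1_KO replicate B (-0.33). That of Tuba1a ended without WT replicate A (0.23), and that of Apoe without WT replicate A (-0.24), WT replicate B (-0.16) and Ythdf1_KO replicate B (-0.18). Tuba1a also lost its call with median scaling (limma adjusted p = 0.132), and Apoe with edgeR (adjusted p = 0.0972) and with WT and Ythdf1_KO alone (limma, 0.0729). With no filter on low values the 8 h calls of Fbxo15 (limma adjusted p = 0.115), Mt2 (0.0735), Tuba1a (0.0735), Dnmt3l (0.147), Apoe (0.222) and Tmem37 (0.05004) ended. Khdc3 stood at 2.53 at 4 h (adjusted p = 0.00293), a call that ended without WT replicate A (0.128) and without Ythdf1_KO replicate A (0.0834) or B (0.120), and at 0.37 ± 0.46 at 8 h, and Klf5 at -0.02 ± 0.21 at 8 h, when its level had dropped to 27.3 ± 7.17 FPM in WT. These changes of size between 0 h and 8 h did not pass a test of the difference itself over all 30 replicate means, in which 4 of 9078 genes were called (0.0441%).

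**Figure D5:**
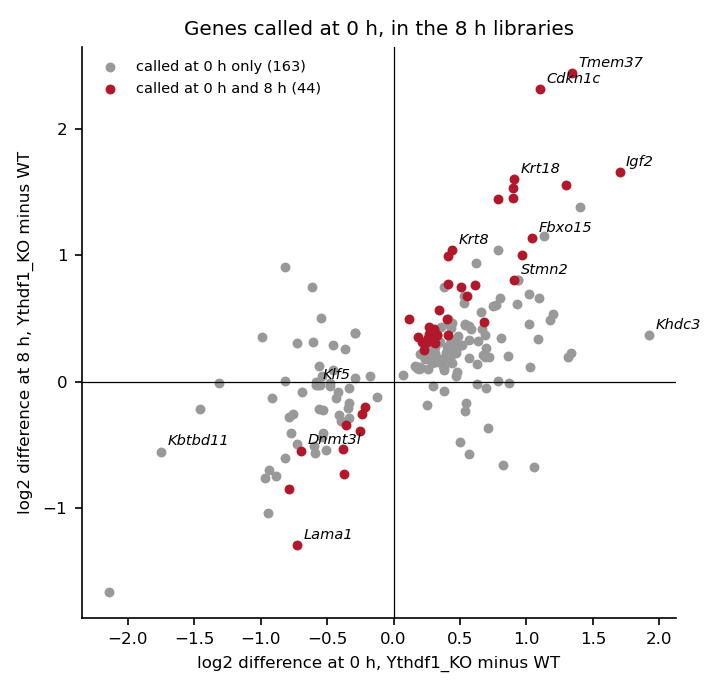
Log2 difference of Ythdf1_KO from WT at 8 h against that at 0 h for the 207 genes called at 0 h and tested at 8 h, 1 point a gene, with the 44 called at both times in red. Most points (178 of 207) have the same sign at both times, and Tmem37, Cdkn1c and Krt18 have larger values at 8 h.

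The higher genes had shorter gene models than genes in general. Their median transcript length was 2140 nt against 2778 for all genes tested, their median 3′ UTR 594 nt against 850, and 7 exons against 9. Their level also differed, with a median of 59.7 FPM in the 8 libraries against 18.4 for all genes, and the part of level in the length difference was not tested. A model was found for 96.0% of the higher genes but for 75.6% of the lower ones, so that check is void for the lower genes.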

How the data were processed

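The 50 libraries were made by 3′ end sequencing of poly(A) RNA, and the 8 of Ythdf1_KO and WT at 0 h were compared. The authors deposited FPM, an RPM unit that scales reads to the library total, for 22338 RefSeq transcripts. The submitters' processing notes name CASAVA 1.8.2, Bowtie2 and mm10, and how reads were assigned to transcripts is not given in the sources used here. Transcripts were matched to symbols, identical entries of a gene were counted once (2169 dropped), and 19455 genes remained. Values were taken as log2(FPM + 1) and the duplicates of a replicate averaged. The 20 libraries at 0 h, of 5 genotypes, were fitted together as 10 replicate means with limma 3.58.1 (R 4.3.3; empirical Bayes with a trend), on genes of at least 5 FPM in at least 2 means. A gene low in WT could thus enter through genotypes where it was higher. All adjusted p-values are Benjamini-Hochberg values over all genes tested, called under 0.05. The later times were fitted alike, and scripts were tested on simulated data. Within 0.1 read, 100.0% of values were whole reads, and edgeR 4.0.16 was run on them as an alternative without 1 WT library of 8 h, which passed at this tolerance but failed another check for whole reads. Depth, taken from what 1 read is worth in FPM, limits precision: the 8 libraries held 1183310 to 2341410 reads, and no library repeated another within sampling noise. Entries without a gene name took at most 0.74% of a library's listed FPM.

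Named genes were Ythdf1 to Ythdf3, the 12 largest rises and falls with replicates apart and at least 10 FPM in 1 group, the 8 called genes of highest level, 6 of chromosome 13, up to 3 called members of each list (or the 1 of smallest p), and 5 in each direction against Ythdf2_KO and Ythdf3_KO. Some called genes are counted but not reported here. The members, lists and rules were chosen with earlier results of these data known. Alternatives changed the scaling, filter, pseudocount, samples fitted, test and replicates; those without 1 library and the comparison of 8 h with 0 h were added after seeing the data.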

Additional observations from a re-analysis of the deposited data

Results flagged for a closer look

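In 8 of 170 groups of 4 libraries, 1 library stood apart from the other 3 by Dixon's criterion at the 95% level, and chance gives about 1 in 20 groups. In WT these were Slc16a6, with 8.83 FPM in 1 library of replicate B against 1.69 to 2.80 in the others, Rn4.5s, with 15.2 FPM in 1 library of replicate A, Nme2, with 581.4 FPM in the same library, and Etv4, with 6.29 FPM in 1 library of replicate B. In Ythdf1_KO they were Pak1ip1 (142 FPM) in 1 library of replicate B, Rps23 (570.6 FPM) in the other library of replicate B, and Pfkp (77.3 FPM) and Krt18 (72.3 FPM) in the 2 libraries of replicate A.

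The difference between Ythdf1_KO and WT itself changed between 0 h and 8 h in 4 of 9078 genes in a limma interaction test. The glucose transporter gene Slc2a1 had a change of 0.85 ± 0.14 (adjusted p = 0.000598): the difference was 0.04 at 0 h, 0.04 at 4 h and 0.89 at 8 h, when WT stood at 63.2 ± 8.68 FPM and Ythdf1_KO at 118 ± 15.1 (SD, n = 4 libraries), with no overlap. Hspa8, a constitutive chaperone, had 0.38 ± 0.08 (adjusted p = 0.0136), with differences of 0.12, 0.41 and 0.50. The polyubiquitin gene Ubb had 0.56 ± 0.11 (adjusted p = 0.0183), from -0.09 at 0 h to 0.47 at 8 h, and Ubb-ps, also at 0.56, is a pseudogene with nearly the same values, so their reads cannot be told apart. Slc2a1, Ubb and Ubb-ps are named after their values were seen. Without Ythdf1_KO replicate B no gene was called in this test, and 1 or 2 were called without each of the others.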

How the results depend on the processing

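At 0 h all 228 calls kept their sign under every alternative in which they had a value, except 2 without 1 library of Ythdf1_KO replicate B. The number called (higher and lower) was 20 (15 and 5) when all times were fitted together, 115 (68 and 47) with WT and Ythdf1_KO alone and 57 (32 and 25) with no filter on low values. It was 105 to 218 (70 to 159 and 35 to 77) leaving out each replicate, 187 with edgeR, 230 with TMM scaling and 269 without that 1 library, and the causes were not tested. The replicate block gave 242 calls, 228 of them shared, and kept all 68 calls that met the naming rule, while Eif4ebp1 passed as well (adjusted p = 0.0495). Of the 68, 53 were lost with all times fitted together, 43 with no filter, 19 with WT and Ythdf1_KO alone, 7 with edgeR, 2 with TMM scaling and 14 to 26 leaving out each replicate. With all times together the lost calls include Tmem37, Emb, Dppa3, Brpf3, Kbtbd11, Islr2 and Klf5, and with no filter Emb and Brpf3. Same-lettered replicates did not deviate together (correlations of -0.022 to 0.024). Read sampling adds to these deviations and weakens such correlations, so they do not settle whether a shared letter means a shared origin. Against the mean of Ythdf2_KO and Ythdf3_KO the count was 46 with all times, 73 with no filter and 136 to 341 leaving out each replicate. At 8 h it was 68 with the compared genotypes alone, 14 with no filter and 52 to 107 leaving out each replicate, and at 4 h 70 with at least 20 FPM, 212 with all times, 11 with no filter and 13 to 32 leaving out each replicate. The 8 h minus 0 h test gave 10 calls with TMM (4 higher and 6 lower), 2 with edgeR, 1 with median scaling and 0 to 2 leaving out each replicate. The chromosome 13 median was 0.192 with at least 20 FPM, 0.114 with no filter, 0.173 and 0.133 with pseudocounts of 0.5 and 5, 0.176 without the 1 library and 0.15 to 0.191 leaving out each replicate. Among the genes named by rule, the differences that changed sign had no call in the main fit: Ythdf1 (-0.0671 to 0.0629 leaving out each replicate, 0.0384 without the 1 library), Ythdf3 (-0.13 to 0.55), Ldha (-0.13 to 0.0283, and 0.0222), Tpi1 (-0.0512 to 0.0191, and 0.0221), H2ac24 (0.10) and H2ac23 (0.11). H2ac24 and H2ac23 were called lower with TMM scaling (limma adjusted p = 0.0381 and 0.0386) and with a filter of 20 FPM (0.0323 and 0.0336). The 4 h call of Ythdf1 ended with no filter (adjusted p = 0.258).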
